A study of Mus musculus with 48 samples.

Results

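Elastin and 8 genes that build, anchor or crosslink elastic fibres were followed through the brains of mice given angiotensin II. They were selected by name from the deposited gene table (Eln, Fbn1, Fbln5, Fbln2, Lox, Loxl1, Emilin1, Mfap4 and Ltbp4), 9 of 54532 genes. They were proposed with earlier results of these data in view: elastin because it was called when hemispheres of angiotensin II and vehicle mice were compared, and the other 8 as its partners in the fibre. All mice were wild-type male C57Bl6 animals of unstated age that carried an osmotic minipump for 2 weeks. The pump gave angiotensin II, a peptide hormone that constricts vessels and raises blood pressure, at 0.7 mg per kg per day, or saline as vehicle. A portion of each kind also drank water with hydralazine, a vasodilator that lowers blood pressure, at 50 mg per kg. RNA sequencing covered the brain hemisphere and, separately, the hippocampus, each under 4 treatments (angiotensin II, both drugs, vehicle, and vehicle plus hydralazine), with 6 libraries in each of the 8 groups. The labels give hypertension as the disease state of every mouse that received angiotensin II, with or without hydralazine, and control for the others; blood pressure was not analysed here.

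Elastic fibres give arteries their recoil. Tropoelastin, the soluble product of Eln, is laid down on a scaffold of fibrillin microfibrils (Fbn1), guided there by fibulins, and crosslinked by lysyl oxidases into an insoluble core. EMILIN1, MFAP4 and LTBP4 sit at the fibre or bind its parts, and LTBP4 also holds latent TGF-beta. In the adult brain such fibres are known mainly from the walls of arteries and arterioles and from the meninges.

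Levels are given as FPKM (fragments per kilobase, scaled to 1000000 reads), a scale per length on which genes can be compared. Differences are on the log2(FPKM + 0.5) scale with a standard error (SE), and a gene was called at an adjusted p under 0.05 (limma, two-sided, Benjamini-Hochberg over all genes tested). Of the 9 genes, 8 passed the filter on low values (at least 0.5 FPKM in at least 6 libraries) in every fit. Lox failed it and is described by level only. The labels do not say that libraries came from separate animals, so p-values measure the spread between libraries, which may be partly technical.

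Libraries held 15.8 to 23.5 M reads in genes in the hemisphere and 1.21 to 21.0 M in the hippocampus (M, 1000000). Of the 24 hippocampal libraries, 6 listed only 7805 to 15684 genes above 0, against 18914 to 23044 in the other 18; they were replicates 3 and 4 of vehicle, 3 of angiotensin II, 3 and 4 of vehicle plus hydralazine, and 5 of both drugs. In these 6, several of the 9 genes were listed at 0 or gave the highest value of their group. Ltbp4 was never at 0, and elastin in each of the 6 lay below every other library of its group. Hippocampal results are therefore given with and without these libraries. Angiotensin II replicate 6 stood apart in the hemisphere, with 2.77% of hemisphere reads from mitochondrial genes against 5.70% to 7.22% in the other 23. The hippocampal library of the same number had 5.74%, the lowest of that region, beside 6.40% to 10.53% in the rest. Read counts of replicate 6 differed from those of the other 5 libraries of its group by a chi-square per gene of 93.8 to 114 in the hemisphere (3.55 to 5.57 among the others) and 105 to 137 in the hippocampus (9.11 to 44.5). The regional labels matched their markers: the summed level of a list of hippocampal principal neuron genes was 118 to 138 FPKM in the hemisphere and 348 to 532 FPKM in the hippocampus. That of striatal, thalamic and cerebellar neuron genes was 166 to 239 and 9.45 to 61.3 FPKM. Hippocampal vehicle replicate 5, kept among the 18, gave both the 348 and the 61.3 FPKM, where the next values were 442 and 16.6 FPKM. Whether it held tissue from outside the hippocampus was not tested.

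Ltbp4, which binds fibulins and latent TGF-beta, was the most abundant of the 9 genes in both regions, with a median of 12.5 FPKM in the hemisphere. Its lowest hemisphere library, at 11.2 FPKM, lay above the highest value of any other member. Elastin came next at 2.17 FPKM (1.28 to 3.99). Its range overlapped that of Fbln5, the fibulin that tethers tropoelastin to microfibrils and cells, at 1.41 FPKM. Loxl1, a lysyl oxidase, followed at 1.36, Mfap4 at 1.14, Fbln2 at 1.14, Emilin1 at 0.857 and the microfibril backbone Fbn1 at 0.499 FPKM. From elastin downward each gene's range overlapped that of the next, so neighbours in this order were not separated. Lox, the founding lysyl oxidase, was lowest at 0.194 FPKM (0.0588 to 0.331), from 5 to 35 reads a library, and reached the 0.5 FPKM of the filter in 0 of 24 hemisphere libraries.

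In the annotation of the deposited table (GRCm38), Eln (ENSMUSG00000029675) lies on chromosome 5 from 134702593 to 134747323 on the minus strand and has 36 exon blocks and 8098 exonic bases. Ltbp4 (ENSMUSG00000040488) lies on chromosome 7 from 27305136 to 27337692, Fbn1 (ENSMUSG00000027204) on chromosome 2 from 125300594 to 125507993, Fbln5 (ENSMUSG00000021186) on chromosome 12 from 101746565 to 101819055 and Loxl1 (ENSMUSG00000032334) on chromosome 9 from 58287738 to 58313186, all on the minus strand. On the plus strand, Fbln2 (ENSMUSG00000064080) lies on chromosome 6 from 91212455 to 91272540, Emilin1 (ENSMUSG00000029163) on chromosome 5 from 30913402 to 30921277 and Mfap4 (ENSMUSG00000042436) on chromosome 11 from 61485431 to 61488900. Values are per gene, with exons, introns and UTRs not told apart. A gene on the other strand, Gm9913, overlaps 2442 exonic bases of Fbn1 and held at most 2 reads in any library.

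In the hemisphere, elastin was higher in mice given angiotensin II than in vehicle mice. In hemisphere vehicle libraries 1 to 6 it stood at 1.78, 1.45, 1.71, 1.76, 1.28 and 1.38 FPKM. In the angiotensin II libraries it stood at 2.27, 2.19, 2.24, 3.21, 2.65 and 3.99 FPKM. The groups did not overlap: the lowest angiotensin II library, at 2.19 FPKM, lay above the highest vehicle library, at 1.78 FPKM. Of all genes tested, 0.245% had every angiotensin II library above every vehicle library. Mean levels were 1.56 ± 0.214 (SD, n = 6) and 2.76 ± 0.717 FPKM (SD, n = 6), from a median of 239 and 359 reads a library. The difference was 0.64 ± 0.11 (SE), a 1.56-fold change on the log2(FPKM + 0.5) scale. This is the contrast that elastin was selected on, so the value is a description. In it 0.0717% of the 16747 genes tested were called (12 genes), and elastin ranked 6 by p. Just inside the threshold was Nr4a1, an immediate early transcription factor (-1.02 ± 0.20, SE; adjusted p = 0.0455, limma). Just outside it was Pnrc1, a nuclear receptor coactivator (-0.38 ± 0.078, SE; adjusted p = 0.0711, limma).

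The place of elastin among the called genes rested on single libraries. It was no longer called without vehicle replicate 2, 5 or 6, or without angiotensin II replicate 4 or 5, although its difference was then 0.60 to 0.65. Without angiotensin II replicate 6, the library with the most elastin, the difference was 0.54 and elastin was still called. Over all 12 libraries left out in turn, the difference was between 0.54 and 0.69.

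**Figure D1:**
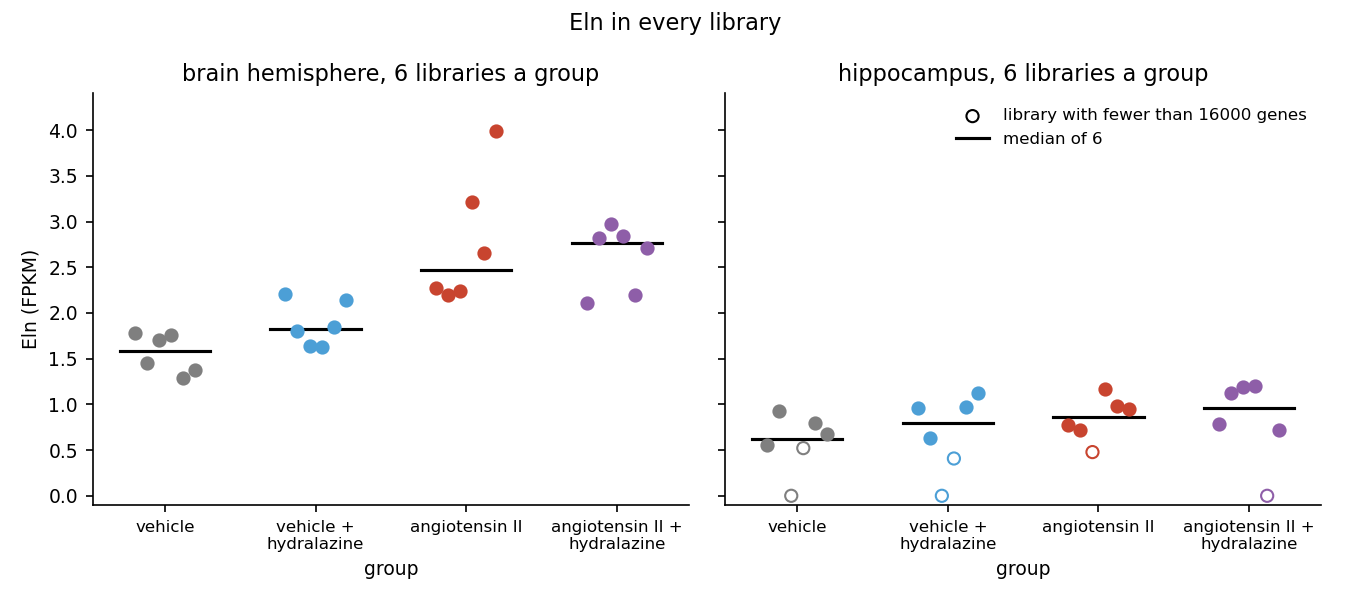
Eln level in FPKM (vertical axis) in each of the 48 libraries by group, brain hemisphere on the left and hippocampus on the right, with a bar at each group's median and open circles for the 6 libraries with fewer than 16000 genes. In the hemisphere the angiotensin II libraries start at 2.19 FPKM, above every vehicle library, while the hippocampal groups overlap and include 3 libraries listed at 0.

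When both groups drank hydralazine, a comparison that shares no library with the one above, elastin again stood higher with angiotensin II. With vehicle plus hydralazine, elastin stood at 2.21, 1.81, 1.64, 1.62, 1.85 and 2.14 FPKM in libraries 1 to 6. With both drugs it stood at 2.11, 2.82, 2.97, 2.85, 2.20 and 2.72 FPKM. These groups overlapped, with 4 of 6 libraries of mice on both drugs above every library of the control group and 6 of 6 above its mean of 1.88 FPKM. The difference was 0.39 ± 0.11 (SE; 95% interval 0.15 to 0.62), and over all genes it was not called (adjusted p = 1, unadjusted p = 0.00261, limma). The percentage of genes called in this comparison was 0, with 501 of 16747 at an unadjusted p under 0.05. Taken alone, elastin differed by a two-sided exact permutation test (p = 0.0108 over 924 regroupings, where the smallest possible is 0.0022). The p of this test was 0.0325 when adjusted over 3 comparisons that share no library with the contrast that chose elastin. The permutation tests, here and in the hippocampus, were added after the data were seen, for a gene already chosen. Earlier results of these data were also known when the comparisons were chosen, so these p-values are descriptions and not independent tests. The other 7 tested members moved by -0.17 to 0.00 here, with 95% intervals that all included 0. The median of the 8 was -0.03, beside 0.00 over all genes.

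In mice given hydralazine beside angiotensin II, elastin stood at 2.61 ± 0.363 FPKM (SD, n = 6), 0.05 below angiotensin II alone on the log2 scale (-0.05 ± 0.11, SE). In mice given hydralazine alone it stood at 1.88 ± 0.248 FPKM (SD, n = 6), 0.21 ± 0.11 (SE) above vehicle, with 6 of 6 libraries above the vehicle mean. The groups overlapped in both comparisons. Both share libraries with the contrast that chose elastin, as does the interaction of the 2 drugs (-0.26 ± 0.16, SE), so they are descriptions. Over all 16747 genes 0 were called in each of these comparisons of hydralazine, with 760 and 279 genes at an unadjusted p under 0.05 (limma).

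Of the 7 tested partners of elastin, 0 were called between angiotensin II and vehicle hemispheres, where 0.0717% of all genes were called. Mfap4, a microfibril-associated glycoprotein that binds tropoelastin, stood at 0.829 to 1.14 FPKM (median 1.05) in vehicle and 0.883 to 2.02 FPKM (median 1.44) with angiotensin II. All angiotensin II libraries but 1, replicate 5, lay above every vehicle library, and the difference was 0.36 ± 0.12 (SE). Loxl1, which crosslinks elastin in adult tissue, stood at 0.764 to 1.46 FPKM (median 1.32) in vehicle and 1.20 to 3.32 FPKM (median 1.62) with angiotensin II. Here 4 of 6 libraries exceeded every vehicle library, and the top one was replicate 6. The difference was 0.38 ± 0.17 (SE), and 0.23 without that library.

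Emilin1, an elastin-interface protein that restrains TGF-beta maturation, stood at 0.600 to 1.20 FPKM (median 0.854) in vehicle and 0.768 to 1.72 (median 0.968) with angiotensin II, a difference of 0.23 ± 0.15 (SE). Replicate 6 gave the 1.72 FPKM, and without it the difference was 0.13. Fbln5 stood at 1.11 to 1.66 FPKM (median 1.32) and 1.06 to 2.22 (median 1.64), a difference of 0.21 ± 0.11 (SE). Both genes overlapped widely between the groups. Ltbp4 differed by 0.15 ± 0.12 (SE), with replicate 6 at 24.3 FPKM and the other angiotensin II libraries at 11.2 to 13.7 FPKM, beside 11.8 to 14.9 FPKM in vehicle. Without replicate 6 the difference of Ltbp4 was 0.0015. Fbn1 differed by 0.14 ± 0.11 (SE), with 0.262 to 0.707 FPKM (median 0.466) in vehicle and 0.464 to 0.677 (median 0.606) with angiotensin II. Fbln2, a fibulin that binds elastin and fibrillin, stood at 0.968 to 1.38 FPKM (median 1.20) in vehicle and 0.889 to 1.73 (median 1.13) with angiotensin II, a difference of -0.01 ± 0.11 (SE). Lox stood at 0.165 to 0.260 FPKM in vehicle and 0.0588 to 0.254 with angiotensin II, with 2 of 6 libraries below every vehicle library.

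Of the 8 tested members, 7 were above 0 in this contrast and 1, elastin, was called. Their median difference was 0.22, beside 0.00 over all genes. The count and the median include elastin, which was selected on this contrast. Without replicate 6 there were again 7 above 0 and 1 called, and the median was 0.15. With both drugs against angiotensin II, all 8 were below 0, from -0.44 ± 0.17 (SE) for Loxl1 to the -0.05 of elastin, with a median of -0.18 and 0 called. That count rested on angiotensin II replicate 6. Without it 6 of 8 were below 0, elastin stood at 0.048, Ltbp4 at 0.020 and Loxl1 at -0.28, and the median was -0.13. For hydralazine against vehicle the differences ran from -0.02 to 0.21, with 7 above 0 and 0 called, and the signs of 5 members turned on leaving out single libraries. Mice on both drugs had Mfap4 at 0.878 to 1.38 FPKM, with a median of 1.21 that lay above the highest vehicle library (1.14). Their Loxl1 stood at 0.725 to 1.40 FPKM, with a median of 1.20 inside the vehicle range of 0.764 to 1.46. In the same mice Fbln5 stood at 1.22 to 1.65, Fbln2 at 0.889 to 1.28, Emilin1 at 0.380 to 1.12, Fbn1 at 0.317 to 0.549, Ltbp4 at 11.9 to 14.7 and Lox at 0.0829 to 0.302 FPKM. With vehicle plus hydralazine the ranges were 0.994 to 1.57 for Mfap4, 0.797 to 1.72 for Loxl1, 1.15 to 1.60 for Fbln5, 0.916 to 1.63 for Fbln2, 0.636 to 1.23 for Emilin1, 0.253 to 0.586 for Fbn1, 11.7 to 15.7 for Ltbp4 and 0.194 to 0.331 FPKM for Lox. Each of these ranges overlapped that of the mice on both drugs. These comparisons share libraries with one another, so the mirrored signs are not separate evidence. The interaction estimates were below 0 for all 8 members, between -0.48 ± 0.24 (SE) for Loxl1 and -0.16 for Fbln2 and Ltbp4.

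**Figure D2:**
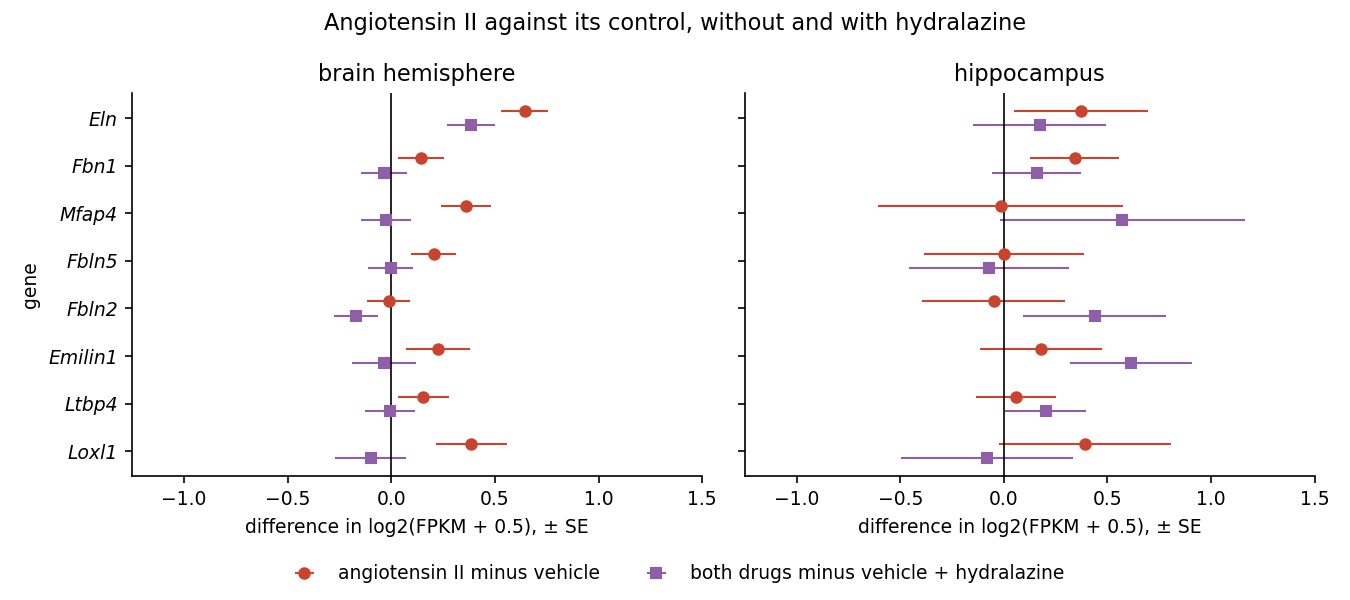
Difference in log2(FPKM + 0.5) with its SE (horizontal axis) for the 8 tested genes, angiotensin II minus vehicle as circles and both drugs minus vehicle plus hydralazine as squares, in the hemisphere (left) and hippocampus (right). In the hemisphere the square of Eln, at 0.39, is the only one to the right of 0 by more than its SE, and the hippocampal error bars are wider.

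No other gene of the elastic fibre or of its turnover was called beside elastin. Over all genes only 0.0717% were called in this contrast, so 0 called in lists of this size does not set them apart. Of 20 tested genes of a further list of elastic fibre and microfibril genes, 0 were called between angiotensin II and vehicle hemispheres, 12 were above 0 and 0 had an unadjusted p under 0.05 (limma). Of 10 proteases that cut elastin or their inhibitors, 0 were called and 0 had an unadjusted p under 0.05 (limma). Of 14 TGF-beta ligands, receptors and induced genes, 0 were called and 1 had an unadjusted p under 0.05 (limma). Medians of the 3 lists were 0.08, -0.01 and -0.08, beside 0.00 over all genes. No gene of these lists was called in any of the 8 comparisons between treatments, and beyond this contrast 0 of all genes were called in them.

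Markers of the cells that could carry these transcripts are given beside these results. The summed level of 12 arterial endothelium genes was 46.3 to 58.7 FPKM in hemisphere vehicle and 54.5 to 77.5 with angiotensin II. It was 51.5 to 65.7 FPKM with vehicle plus hydralazine and 57.1 to 69.1 with both drugs. That of 15 arterial smooth muscle genes was 18.5 to 30.03 FPKM in vehicle and 21.5 to 34.5 with angiotensin II, and 15.4 to 25.3 and 18.6 to 26.0 FPKM in the hydralazine groups. That of 15 meningeal and perivascular fibroblast genes was 37.5 to 48.4 FPKM in vehicle and 41.2 to 68.9 with angiotensin II, and 31.1 to 52.4 and 38.5 to 52.5 FPKM in the hydralazine groups. None of the 15 fibroblast and 12 arterial endothelium genes was at 0 in every library of a hemisphere group, nor was any smooth muscle gene. Every pair of these ranges overlapped, and replicate 6 gave the highest angiotensin II value of all 3. That library also had the highest hemisphere sums of astrocyte (907.6 FPKM, next 713) and neuron genes (1608, next 1509), and of pericyte and endothelium genes. The highest hemisphere sums of hippocampal principal neuron, of striatal, thalamic and cerebellar neuron, and of choroid plexus epithelium genes were in vehicle libraries. The part of vessel or meningeal content in the elastin values was not tested. In bulk RNA, fewer cells of a type and less RNA per cell cannot be told apart. An antisense gene, Gm30003, overlaps 267 exonic bases of Eln on the other strand and stood at a median of 0.306 FPKM in the hemisphere, with at most 20 reads in any library. Whether the counting used strand is not given in the sources used here.

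Within the hemisphere groups, the genes that varied most like elastin from library to library lay outside these lists. The 13 lists hold 169 genes, few beside all those compared, so this is likely for any gene. Each gene's level was taken as its deviation from the group mean over 24 libraries, and 11735 genes of at least 1 FPKM were compared. The 8 most like elastin were Coro1c (Pearson r = 0.853, Spearman rho = 0.854), an actin-binding coronin, Tgm2 (0.840, 0.837), the tissue transglutaminase, Dhx34 (0.839, 0.843), an RNA helicase, Tbc1d7 (0.833, 0.792), a subunit of the TSC complex, Lmf1 (0.825, 0.738), a lipase maturation factor, Psmb8 (0.821, 0.787), an immunoproteasome subunit, Cenpx (0.819, 0.782), a centromere protein, and Tuba1a (0.817, 0.809), an alpha-tubulin. Without angiotensin II replicate 6 these coefficients were 0.722 to 0.786. The points share libraries and their depth, so these are descriptions over 24 points.

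Among members, elastin went most closely with Ltbp4 (r = 0.758, rho = 0.723; r = 0.630 without replicate 6). With Fbn1 the coefficient was -0.055. The 0.630 still includes replicate 1 of vehicle and of vehicle plus hydralazine, each the highest of its group for elastin and Ltbp4. Read counts of these libraries also stood apart from their groups, with a chi-square per gene of 19.0 to 31.1 and 13.8 to 25.8. Other pairs of those groups gave 3.18 to 7.33 and 4.33 to 10.5. Over the 36 pairs of members the median r was 0.372, with 27 above 0, and without replicate 6 it was 0.222. Against the mean of a marker list, elastin had r = 0.729 for arterial endothelium (0.616 without replicate 6). With arterial smooth muscle it was 0.600 (0.542), with pericytes 0.518 (0.341) and with fibroblasts 0.295 (0.208). In 18 hippocampal libraries the order was another, with r = 0.761 for fibroblasts, 0.578 for arterial endothelium and 0.566 for arterial smooth muscle. Coefficients for neuron and other lists are not given here, so these values are not shown to be particular to vessels. In hemisphere vehicle, angiotensin II and vehicle plus hydralazine, the library highest in elastin had the highest neuron sum (1509, 1608 and 1487 FPKM). With both drugs this was not so.

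**Figure D3:**
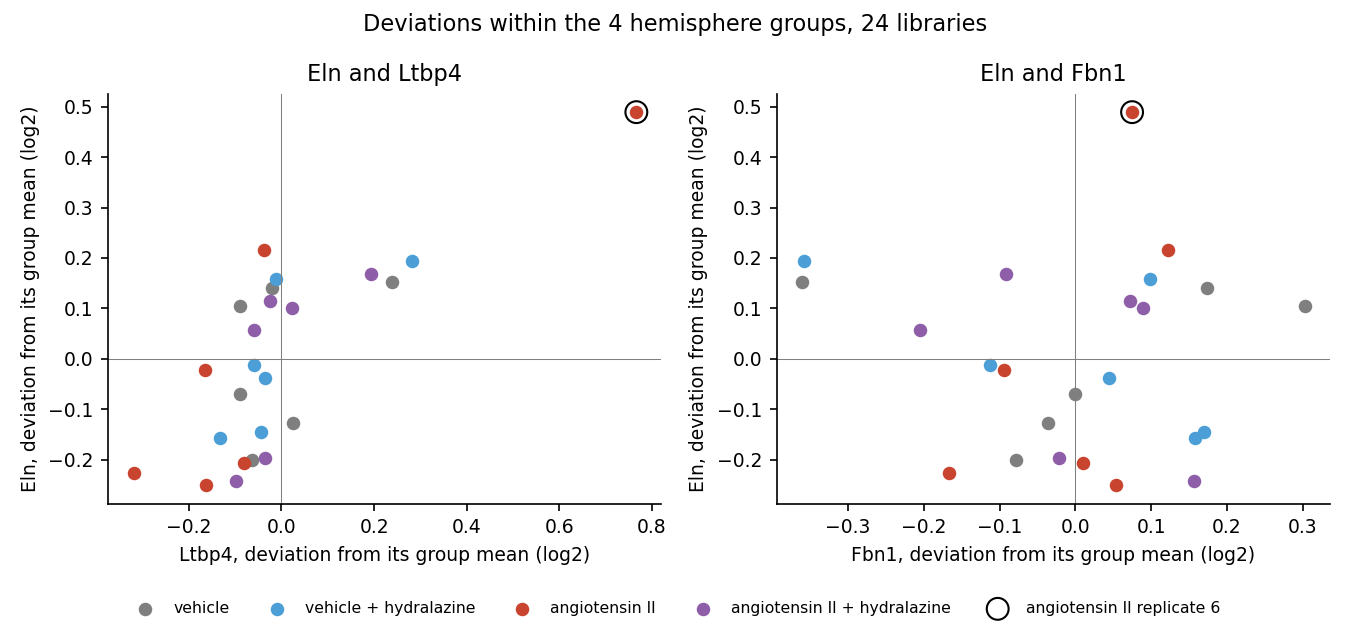
Deviation of Eln from its group mean (vertical axis, log2) against that of Ltbp4 (left) and Fbn1 (right) in the 24 hemisphere libraries, coloured by group, with angiotensin II replicate 6 circled. Points rise together for Ltbp4 (r = 0.758) and replicate 6 lies at the upper right, while no slope is seen for Fbn1 (r = -0.055).

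In the hippocampus no member was called between treatments. In vehicle libraries 1 to 6 elastin stood at 0.558, 0.929, 0, 0.521, 0.791 and 0.674 FPKM. With angiotensin II it stood at 0.776, 0.722, 0.478, 1.17, 0.987 and 0.952 FPKM. The groups overlapped. Vehicle plus hydralazine gave 0.966, 0.636, 0, 0.408, 0.968 and 1.12 FPKM, and both drugs gave 0.787, 1.13, 1.19, 1.20, 0 and 0.720 FPKM. The 3 values of 0 were from libraries with few genes, where a count of 0 allows up to 0.0297 FPKM in vehicle replicate 3, 0.268 in vehicle plus hydralazine replicate 3 and 0.0256 in both drugs replicate 5 (3 reads; counting error only).

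Angiotensin II against vehicle differed by 0.37 ± 0.32 (SE) for elastin in the hippocampus (two-sided exact permutation p = 0.147, adjusted 0.221). Without the libraries with few genes it was 0.20 ± 0.14 (SE; exact permutation p = 0.143, n = 5 and 4, where the smallest possible p is 0.0159). Both drugs against vehicle plus hydralazine differed by 0.17 ± 0.32 (SE; exact permutation p = 0.626), and by 0.08 without those libraries (exact permutation p = 0.635). The 95% interval of the first difference, -0.30 to 1.04, includes both 0 and the 0.64 of the hemisphere. Without the libraries with few genes the interval was -0.11 to 0.51, which includes 0 and lies below 0.64. It overlaps the hemisphere interval of 0.40 to 0.88, from the contrast that elastin was selected on. The 0.5 added to FPKM understates changes of low genes, and elastin was lower in the hippocampus. Whether the regions differed in this response was not tested. Over all genes 0 of 15267 were called in each of the 4 hippocampal comparisons, with 210 to 911 genes at an unadjusted p under 0.05 (limma). Among the 8 members 0 were called in each.

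Values of 3 members are given for the hippocampus although none was called. Emilin1 stood 0.61 ± 0.29 (SE) higher with both drugs than with vehicle plus hydralazine (unadjusted p = 0.0474, adjusted p = 0.649, limma), and 0.11 higher without the libraries with few genes. Fbn1 stood 0.34 ± 0.21 (SE) higher with angiotensin II than with vehicle, and 0.36 ± 0.12 (SE) without those libraries (adjusted p = 0.808, limma). In the libraries that remained, Fbn1 was 0.269 to 0.432 FPKM with vehicle (n = 4) and 0.486 to 0.737 with angiotensin II (n = 5), which did not overlap. This was 1 of 36 comparisons of a member between treatments, and 1.83% of all genes tested had every angiotensin II library above every vehicle library here. Replicate 6 gave the 0.737 FPKM, and without it too the difference was 0.32 ± 0.13 (SE; adjusted p = 0.990, limma). Fbln2, both drugs against vehicle plus hydralazine, differed by -0.30 ± 0.13 (SE) without those libraries (unadjusted p = 0.0331, adjusted p = 0.99989, limma) and by 0.44 ± 0.35 (SE) with all of them.

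The other members overlapped among the 4 treatments once the libraries with few genes were set aside. Mfap4 then stood at 2.96 to 4.39 FPKM in vehicle, 3.48 to 4.93 with angiotensin II, 3.42 to 4.50 with vehicle plus hydralazine and 3.29 to 4.72 with both drugs. It was listed at 0 in 3 of the libraries set aside, and with all libraries its difference for hydralazine against vehicle was -1.06 ± 0.59 (SE), beside 0.09 without them. Ltbp4 stood at 7.90 to 8.93, 7.81 to 15.7, 7.91 to 10.9 and 7.08 to 10.1 FPKM in the same order of groups. Loxl1 stood at 1.03 to 1.35, 1.01 to 2.17, 1.18 to 1.74 and 1.13 to 1.46 FPKM. Angiotensin II replicate 6 was the highest of these libraries for Ltbp4. Fbln5 stood at 0.331 to 1.06, 0.318 to 0.558, 0.380 to 1.03 and 0.326 to 0.945 FPKM, and Emilin1 at 0.324 to 0.515, 0.390 to 0.908, 0.277 to 0.906 and 0.295 to 1.05 FPKM. Fbln2 stood at 0.450 to 0.681, 0.493 to 0.947, 0.611 to 0.948 and 0.478 to 0.703 FPKM.

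Between the regions, Mfap4 was called higher in the hippocampus (12.5% of the 8 tested members) and 5 members were called lower (62.5%). Of all genes, 20.2% were called higher and 47.2% lower, so a call between the regions was common. Over all 18 hippocampal libraries with enough genes, Mfap4 stood at 2.96 to 4.93 FPKM (median 4.26), above every one of the 24 hemisphere libraries (0.829 to 2.02, median 1.14 FPKM). Elastin stood at 0.558 to 1.20 FPKM (median 0.940), below every hemisphere library. Of all genes tested, 4.22% stood above every hemisphere library in this way and 11.2% below. Averaged over the 4 treatments with all 48 libraries, Mfap4 was 1.03 ± 0.22 (SE) higher (adjusted p = 5.7e-05, limma) and elastin 1.17 ± 0.12 (SE) lower (adjusted p = 1.3e-11, limma). Without the libraries with few genes the differences were 1.41 ± 0.064 and -0.93 ± 0.064 (SE). All 3 values of 0 for Mfap4 came from libraries with few genes.

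Fbln5 was lower as well, with 0.318 to 1.058 FPKM in the 18 hippocampal libraries (median 0.522), just under the 1.064 to 2.22 FPKM of the hemisphere. Its difference was -0.82 ± 0.14 (SE; adjusted p = 2.9e-06, limma). Fbln2 (-0.59 ± 0.13, SE), Emilin1 (-0.58 ± 0.12) and Ltbp4 (-0.50 ± 0.08) were also lower (adjusted p of 8.3e-05, 2.8e-05 and 6.6e-07, limma). Without the libraries with few genes these 4 differences were -0.86, -0.51, -0.44 and -0.50, all called. Loxl1 (-0.16 ± 0.16, SE) and Fbn1 (-0.13 ± 0.08) were not called, with medians of 1.28 and 0.525 FPKM in the hippocampus. Lox stood at a median of 0.0884 FPKM, from 2 to 25 reads a library.

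Ltbp4 remained the most abundant member in the hippocampus, at 8.96 FPKM, and Mfap4 moved from the fifth place to the second. The ranges of Ltbp4 and Mfap4 did not overlap each other or those of the genes below them. Loxl1, elastin, Fbln2, Fbn1, Fbln5, Emilin1 and Lox followed, each overlapping its neighbour. An overlapping gene on the other strand, Mapk7, shares 89 exonic bases with Mfap4 and was lower in the hippocampus (median 4.89 FPKM) than in the hemisphere (7.64 FPKM).

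**Figure D4:**
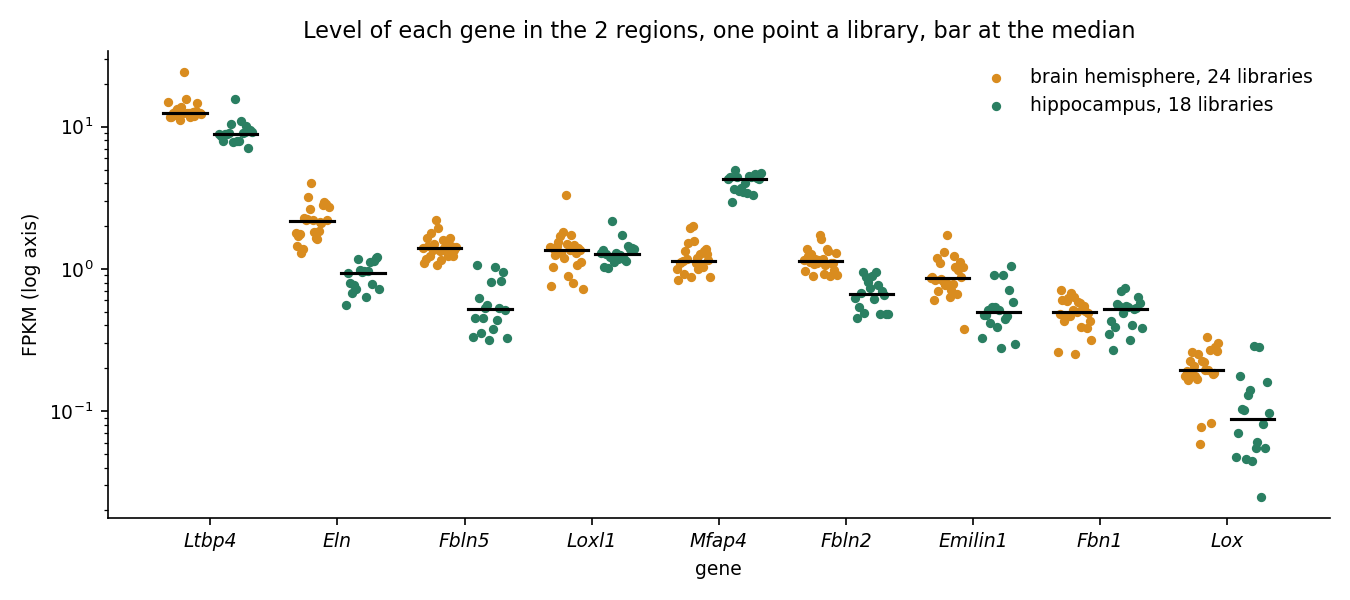
Level of the 9 genes in FPKM (vertical log axis) in the 24 hemisphere libraries and the 18 hippocampal libraries with at least 16000 genes, one point a library and a bar at the median. Mfap4 (median 1.14 against 4.26) and Eln (2.17 against 0.940) separate the regions completely and in opposite directions, while Fbn1 and Loxl1 overlap.

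The members' counts stand beside a wide shift between the regions. Over all 17643 genes tested, 20.2% were called higher and 47.2% lower in the hippocampus, and the median difference of all genes was -0.23. Of the 8 members 1 was called higher and 5 lower, and lower was also the most common call among all genes. Relative to that median, elastin stood at -0.94 and Mfap4 at 1.26. In vehicle mice alone, with 12.7% of genes called higher and 29.5% lower and a median of -0.21, Mfap4 was 1.59 ± 0.44 (SE) higher. There elastin (-0.998 ± 0.24, SE), Fbln5 (-0.93 ± 0.29), Emilin1 (-0.71 ± 0.23) and Ltbp4 (-0.40 ± 0.16) were called lower. The call of Ltbp4 in vehicle mice (adjusted p = 0.0402, limma) was lost on leaving out any of 8 single libraries, hemisphere replicates 1, 4 and 6 or hippocampal replicates 1, 2, 4, 5 and 6 (difference -0.41 to -0.36). Fbln2, not called with all libraries (adjusted p = 0.0594, limma), was called without hippocampal vehicle replicate 3 (-0.72).

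Quantile normalization, which forces all libraries to 1 distribution, kept the directions of Mfap4 (1.505) and elastin (-0.72) and their calls. It turned Fbn1 to 0.44 and Loxl1 to 0.30, both then called higher, and ended the calls of Emilin1 and Fbln2 over the 4 treatments. It called 6686 of 12513 genes higher, where the main scaling called 3572 of 11902 higher. In vehicle mice it called 4043 of 7994 higher, where the main scaling called 2244 of 7442.

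Members that fell together in the hippocampus can be set beside one that did not by the bases before a RefSeq start of each. The RefSeq table (GRCm38.p6) held 8 windows for 5 of the 9 genes. Shown 5′ to 3′ on the gene's strand are the 250 bases before a start of Fbln5 (chr12:101819120-101819369, minus strand) and of Emilin1 (chr5:30913536-30913785, plus strand), both lower in the hippocampus, and of Fbn1 (chr2:125506439-125506688, minus strand), which was not called. The windows of Emilin1 and Fbn1 lie inside the gene spans given above, and that of Fbln5 lies outside its span. Capitals mark matches of the motifs searched, or of their reverse complements.
Fbln5: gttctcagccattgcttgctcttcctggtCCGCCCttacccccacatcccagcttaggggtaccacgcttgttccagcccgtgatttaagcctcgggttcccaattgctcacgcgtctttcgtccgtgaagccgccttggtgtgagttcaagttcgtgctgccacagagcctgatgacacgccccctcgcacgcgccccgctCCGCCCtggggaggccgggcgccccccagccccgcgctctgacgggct
Emilin1: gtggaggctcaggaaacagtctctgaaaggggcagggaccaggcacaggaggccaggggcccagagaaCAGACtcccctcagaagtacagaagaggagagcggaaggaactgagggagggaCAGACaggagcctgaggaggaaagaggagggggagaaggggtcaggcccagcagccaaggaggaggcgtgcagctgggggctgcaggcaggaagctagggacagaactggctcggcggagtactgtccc
Fbn1: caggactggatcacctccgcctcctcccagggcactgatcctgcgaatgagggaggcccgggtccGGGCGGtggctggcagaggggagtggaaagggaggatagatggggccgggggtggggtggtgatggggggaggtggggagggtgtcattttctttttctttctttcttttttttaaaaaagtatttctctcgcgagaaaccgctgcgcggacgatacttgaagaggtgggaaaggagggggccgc

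The motifs searched were the GC box (GGGCGG), the Smad element (CAGAC), the AP-1 element (TGANTCA), the TATA box (letters TATAAA) and the CArG box by name, and no 2 of the marked matches overlap. Fbln5 held 2 GC boxes, Emilin1 2 Smad elements and Fbn1 1 GC box, and the other motifs had 0 matches in these 3 windows. Of 32851 such windows in the table, 32.7% held the GC box, 42.2% the Smad element, 6.75% the AP-1 element, 12.4% the TATA box and 1.47% a CArG box. A GC box was thus found before a RefSeq start of a lower gene and of the uncalled one. A match is a description of letters only, not a site or a cause. Among the windows not shown, Fbln2 held 1 GC box, the 3 of Ltbp4 held 3, 5 and 7, and the other Fbln5 start held 2 Smad elements and 0 GC boxes.

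Of 20 tested genes of the wider elastic fibre list, 0 were called higher and 11 lower (55%) in the hippocampus over the 4 treatments, where 20.2% of all genes were called higher and 47.2% lower. The median was -0.55 beside -0.23 over all genes. The largest falls were Adamts10 (-2.61), a microfibril-associated protease, Ltbp3 (-1.92) and Ltbp2 (-1.69), which are latent TGF-beta binding proteins, and Emilin3 (-0.97). In vehicle mice 0 were called higher and 8 lower (40%), beside 12.7% and 29.5% of all genes. Of 10 proteases and inhibitors, 1 was higher, the cathepsin Ctss (0.72), and 8 were lower (80%, beside the 47.2% of all genes). These were led by the metalloproteinase inhibitors Timp3 (-2.18) and Timp2 (-1.83), then the cathepsin Ctsk (-0.65) and Timp1 (-0.61). In vehicle mice 1 was higher and 6 were lower (60%, beside 29.5%), with Mmp2 (-0.89) then among the largest. Of 14 TGF-beta genes, 4 were higher (28.6%, beside 20.2% of all genes), Tgfb2 (1.42), Skil (0.83), Tgfb1 (0.46) and the receptor Tgfbr1 (0.34). The other 8 called were lower (57.1%, beside 47.2%), led by the matricellular gene Ctgf (-2.30), Tgfb3 (-0.97), Tgfbi (-0.82) and Smad7 (-0.61). In vehicle mice 2 were higher and 2 lower (14.3% each, beside 12.7% and 29.5%), among them the receptor Acvrl1 (-0.996).

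Over the 4 treatments, 85.7% of tested fibroblast genes were called lower in the hippocampus, beside 47.2% of all genes. So were 80% of astrocyte, 75% of endothelium and 60% of pericyte genes, and 25% of arterial smooth muscle and 40% of neuron genes. The summed level of the fibroblast list was 31.1 to 68.9 FPKM in the hemisphere and 13.6 to 38.4 in the 18 hippocampal libraries. Arterial smooth muscle stood at 15.4 to 34.5 and 13.4 to 47.95 FPKM. Arterial endothelium was 46.3 to 77.5 and 33.6 to 58.6 FPKM. Choroid plexus epithelium was 329 to 920 FPKM in the hemisphere and 28.4 to 193 FPKM in the hippocampus but for angiotensin II replicate 4, at 2077 FPKM. The part of these lists in the regional differences was not tested.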

How the data were processed

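The authors deposited 1 table of FPKM (54532 genes, 48 libraries), which also lists gene lengths. The submitters' processing notes name GRCm38, mm10 and DESeq 1.10.1. No source used here names the aligner, the counter or whether strand was used. FPKM times gene length came out as whole reads in 100% of cases (within 0.1 read), and this gave each library's depth. In 120 pairs of replicates the chi-square per gene over genes of at least 20 reads was 3.178 or more, so none was taken for a copy.

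Each column matched 1 library's title. Values were analysed as log2(FPKM + 0.5), which understates changes of low genes, with limma 3.58.1 in R 4.3.3 (1 mean per group, trend and robust prior). The 4 groups of a region shared 1 fit, and all 48 libraries those between regions. The script was tested on simulated data. Elastin alone was also compared by exact permutation tests, added after the data were seen. Members, the 13 gene lists (169 genes), comparisons and rules were chosen with earlier results of these data known. Named genes were the 9 members, up to 4 called genes a direction of each pathway list between regions, any called between treatments, the 8 genes most like elastin, and those nearest the threshold; the 8 were taken from protein-coding genes. Alternatives were other pseudocounts, filters, scalings and priors, library weights, a replicate block, the compared groups alone, and libraries left out. Fits between regions and within the hippocampus without both the libraries with few genes and angiotensin II replicate 6, and the shares of all genes whose groups do not overlap, were added after the data were seen. Sequences are from RefSeq, and matplotlib 3.10.9 drew figures.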

Additional observations from a re-analysis of the deposited data

Results flagged for a closer look

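Of 72 groups of 6 libraries (9 genes in 8 groups), 14 held a library that stood far from the other 5, measured as its gap to the nearest library over the range of the group. Chance flags about 1 group in 20. In the hemisphere, 3 of these were angiotensin II replicate 6, with Ltbp4 at 24.3 FPKM (next 13.7), Loxl1 at 3.32 FPKM (next 1.81) and Fbln2 at 1.73 FPKM (next 1.17). The same replicate number in the hippocampus had Ltbp4 at 15.7 FPKM (next 10.5). Ltbp4 was also high in hemisphere vehicle replicate 1, at 14.9 FPKM (next 12.8), and in vehicle plus hydralazine replicate 1, at 15.7 FPKM (next 12.7).

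The other 8 were in hippocampal libraries with few genes. In both drugs replicate 5, Fbln2 stood at 2.85 FPKM (next 0.703) and Lox at 1.29 FPKM (next 0.159), while Loxl1 was listed at 0 (next 1.13) and Mfap4 at 0 (next 3.29). In vehicle replicate 3, Ltbp4 stood at 15.9 FPKM (next 8.93) and Fbln2 at 1.25 FPKM (next 0.681). Lox stood at 0.619 FPKM in vehicle replicate 4 (next 0.176), and Fbln5 at 4.86 FPKM in vehicle plus hydralazine replicate 4 (next 1.03). Elastin had no such library in any of its 8 groups.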

How the results depend on the processing

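Elastin was higher with angiotensin II than with vehicle in the hemisphere under every alternative run. The count of genes called there was 12, and it was 4 with no filter, 38 with library weights, 5 with a replicate block and 2 with only the groups compared. Members called there were 0 with no filter, with quantile normalization, with the replicate block and with only the groups compared, and 0 to 1 (all genes 0 to 20) with single libraries left out, with 0 genes called without vehicle replicate 5 or 6 or angiotensin II replicate 4. Same-numbered libraries correlated at -0.179 to 0.071 in that comparison. For vehicle plus hydralazine and vehicle they correlated at 0.067 to 0.473 in the hemisphere and 0.059 to 0.141 in the hippocampus. In no comparison was every pair above 0.1, the value required, so libraries were not paired in the main fits. Beyond the 5 above, the block called 1 gene for both drugs against vehicle plus hydralazine and 1 for hydralazine against vehicle in the hemisphere. Library weights called 1 gene for both drugs against angiotensin II in the hemisphere and 6 for both drugs against vehicle plus hydralazine in the hippocampus. Between regions in vehicle mice, 7442 genes were called, against 12483 with library weights, 11209 without the libraries with few genes, 12029 without these and angiotensin II replicate 6, and 6894 to 7421 with single libraries left out; members called were 3 with quantile normalization.

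Directions of uncalled members turned as follows, and the cause was not tested. For both drugs against angiotensin II in the hemisphere, Eln was 0.061 and Ltbp4 0.013 under library weights, and 0.048 and 0.020 without angiotensin II replicate 6. For angiotensin II against vehicle there, single libraries left out gave -0.097 to 0.040 (Fbln2). For hydralazine against vehicle there they gave -0.029 to 0.075 (Ltbp4), -0.038 to 0.13 (Loxl1), -0.056 to 0.085 (Emilin1), -0.016 to 0.10 (Fbln2) and -0.092 to 0.052 (Fbn1), and library weights gave -0.0035 (Emilin1) and 0.015 (Fbn1). For both drugs against vehicle plus hydralazine in the hemisphere, the turned values were Ltbp4 0.038 and Mfap4 0.051 under library weights. Leaving out single libraries gave -0.045 to 0.050 (Ltbp4), -0.063 to 0.031 (Mfap4), -0.094 to 0.083 (Emilin1), -0.042 to 0.027 (Fbln5) and -0.11 to 0.0050 (Fbn1). For angiotensin II against vehicle in the hippocampus, the turned values were Fbln5 0.17 under a pseudocount of 0.1, Mfap4 0.055 and Fbln2 0.23 under library weights, Mfap4 0.067 and Fbln2 0.24 under the libraries with few genes left out, Ltbp4 -0.073, Mfap4 0.020 and Fbln5 0.045 under angiotensin II replicate 6 left out. The range over single libraries left out was -0.073 to 0.20 (Ltbp4), -0.094 to 0.079 (Mfap4), -0.19 to 0.14 (Fbln5) and -0.13 to 0.17 (Fbln2). For both drugs against vehicle plus hydralazine in the hippocampus, the turned values were Fbln5 0.16 under a pseudocount of 0.1, Eln -0.13, Fbln2 -0.020 and Fbn1 -0.10 under quantile normalization, Loxl1 0.029, Fbln5 0.065 and Fbln2 -0.21 under library weights, Loxl1 0.015 and Fbln2 -0.30 under the libraries with few genes left out. Leaving out single libraries gave -0.055 to 0.44 (Eln), -0.41 to 0.23 (Loxl1) and -0.34 to 0.34 (Fbln5). For both drugs against angiotensin II in the hippocampus, the turned values were Eln 0.021 under quantile normalization, Ltbp4 0.062, Eln 0.12, Loxl1 0.027 and Fbln2 -0.23 under library weights, Mfap4 0.076, Eln 0.078, Loxl1 0.016 and Fbln2 -0.26 under the libraries with few genes left out, Ltbp4 0.057 under angiotensin II replicate 6 left out. The range over single libraries left out was -0.13 to 0.057 (Ltbp4), -0.61 to 0.071 (Mfap4), -0.19 to 0.17 (Eln), -0.035 to 0.33 (Fbln2) and -0.20 to 0.0086 (Fbn1). For hydralazine against vehicle in the hippocampus, the turned values were Emilin1 0.17 and Fbln2 0.083 under quantile normalization, Emilin1 0.0089 and Fbln2 0.21 under library weights, Ltbp4 0.047, Mfap4 0.094, Emilin1 0.099 and Fbln2 0.28 under the libraries with few genes left out. Leaving out single libraries gave -0.10 to 0.33 (Eln), -0.26 to 0.39 (Loxl1), -0.19 to 0.11 (Emilin1) and -0.040 to 0.25 (Fbn1). For the regions in vehicle mice, the turned values were Loxl1 0.30 and Fbn1 0.27 under quantile normalization, Loxl1 0.11 under library weights, Loxl1 0.026 under the libraries with few genes left out. The range over single libraries left out was -0.33 to 0.15 (Loxl1). For the regions over the 4 treatments, the turned values were Loxl1 0.30 and Fbn1 0.44 under quantile normalization, Loxl1 0.019 under library weights, Loxl1 0.033 under both the libraries with few genes and angiotensin II replicate 6 left out. Leaving out single libraries gave -0.20 to -0.079 (Loxl1, not turned).

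Fbn1 and Loxl1 between regions turned into calls with quantile normalization over the 4 treatments. Of the uncalled Lox values, a filter at 0.1 FPKM gave -0.10 ± 0.085 (SE) in hemispheres when angiotensin II was set against vehicle, and -0.15 ± 0.091 (SE) between regions over the 4 treatments, neither called. Depth limits Lox, at 5 to 35 reads a hemisphere library. Of the 6 hippocampal libraries with few genes, 1 held 1.21 M reads and the other 5 held 12.7 to 16.7 M, near the 15.4 to 21.0 M of the other 18; what sets the spread of the hippocampal values was not tested.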
